A study of Mus musculus with 12 samples.

Results

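Proliferating N2A cells in which Dali, a long non-coding RNA, was stably knocked down (KD cells) were compared with proliferating N2A cells carrying a non-targeting vector (control cells), and the difference was described across all genes of a whole-transcript array. N2A is a mouse neuroblastoma line, a tumour line of the sympathetic nervous lineage that grows as progenitor-like cells and extends neurites when treated with retinoic acid (RA). The comparison took 6 of the 12 arrays of the series, namely the 3 KD and the 3 scrambled control arrays whose labels name no RA, and it covered 19938 genes, of which 9969 passed a filter on variation and were tested. All 6 came from cells grown in medium with 10% serum, and every cell line had been co-transfected with a pBSU6 hairpin vector and pTK-Hyg and selected as drug-resistant clones with Hygromycin B. The remaining 6 arrays, 3 KD and 3 control, came from cells kept for 72 h with 20 uM RA in 2% serum and are used here only to set the KD difference after RA beside that of proliferating cells. The study's methods call the samples of a group biological replicates and describe independent stable KD clones and a control line, but whether each array of a group stands for its own clone or culture is not in the labels. The p-values therefore reflect only how far these arrays differ among themselves, and a difference between lines cannot be told apart from an effect of the knockdown.

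Dali is transcribed close to Pou3f3, the gene of a class III POU transcription factor of the developing brain. Long non-coding RNAs of this kind can be held on chromatin, where they act on neighbouring or distant genes together with chromatin proteins. A short hairpin RNA (shRNA) knockdown uses a cloned oligonucleotide whose transcript folds back on itself and is processed into a small RNA that guides the breakdown of the matching transcript. The study's hairpin oligos against Dali are shown because they define the KD cells. Each is 52 bases long, and the 17 capitals are the sense stem, which recurs as its reverse complement after a loop of 11 bases; which of them the stable lines carry is not given in the sources used here.
sh74: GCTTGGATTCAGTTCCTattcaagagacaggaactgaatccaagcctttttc
sh862: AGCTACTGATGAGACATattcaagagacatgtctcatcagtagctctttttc
sh906: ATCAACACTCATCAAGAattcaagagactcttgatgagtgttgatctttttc
sh1000: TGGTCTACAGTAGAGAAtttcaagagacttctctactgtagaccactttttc

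Dali had no probe set among those with a gene symbol, so the depletion of the targeted RNA was not measured on these arrays. Its genomic neighbour Pou3f3 read 7.26, 7.24 and 7.31 in the control arrays and 7.13, 7.26 and 7.34 in the KD arrays, on the log2 scale of the normalised array values. The groups overlapped, and the difference of -0.02 ± 0.07 (SE) was within the spread between arrays; Pou3f3 was among the less variable genes and was not tested. Pantr1, a non-coding RNA gene beside Pou3f3, showed a difference of -0.05 ± 0.08 (adjusted p = 0.678), and the other class III POU genes Pou3f1, Pou3f2 and Pou3f4 differed by -0.04, -0.06 and 0.09, each with overlapping arrays. Among the chromatin proteins that the study linked to Dali, the DNA methyltransferase gene Dnmt1 was higher by 0.24 ± 0.04 (adjusted p = 0.000954) and the chromatin remodeller gene Smarca4 by 0.21 ± 0.04, both short of the 1.3-fold cutoff. Gatad2b and Sin3a, members of repressor complexes, differed by 0.08 ± 0.05 and 0.12 ± 0.05. Smarca4, Gatad2b, Sin3a and Pou3f1 were, like Pou3f3, among the less variable genes and were not tested.

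In all, 694 of the 9969 tested genes were called, meaning a change of at least 1.3-fold with limma's adjusted p, by Benjamini and Hochberg, below 0.05. That is 6.96% of the tested genes. Of these, 395 genes (3.96%) were higher in KD cells and 299 (3%) were lower. The split depended on processing, as repeated quantile normalisation gave 346 higher and 333 lower. Most changes were small, with a median log2 difference of 0.46 among the rises and of -0.5 among the falls, and the falls held the larger ones. A change of at least 2-fold was reached by 11 rises and 25 falls, and at least 4-fold by 0 rises and 5 falls. The median log2 difference over the tested genes was -0.0112. The level of the called genes in control cells lay below the median of all array values, 7.17, for 25.6% of the rises and 20.1% of the falls, against 41.4% of the tested genes. By class of transcript, 7.64% of the 8584 tested protein-coding genes outside the odour receptor families were called, 6.05% of 215 small RNA genes, 3.1% of 290 long or other non-coding genes and 1.33% of 600 olfactory receptor genes.

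**Figure D1:**
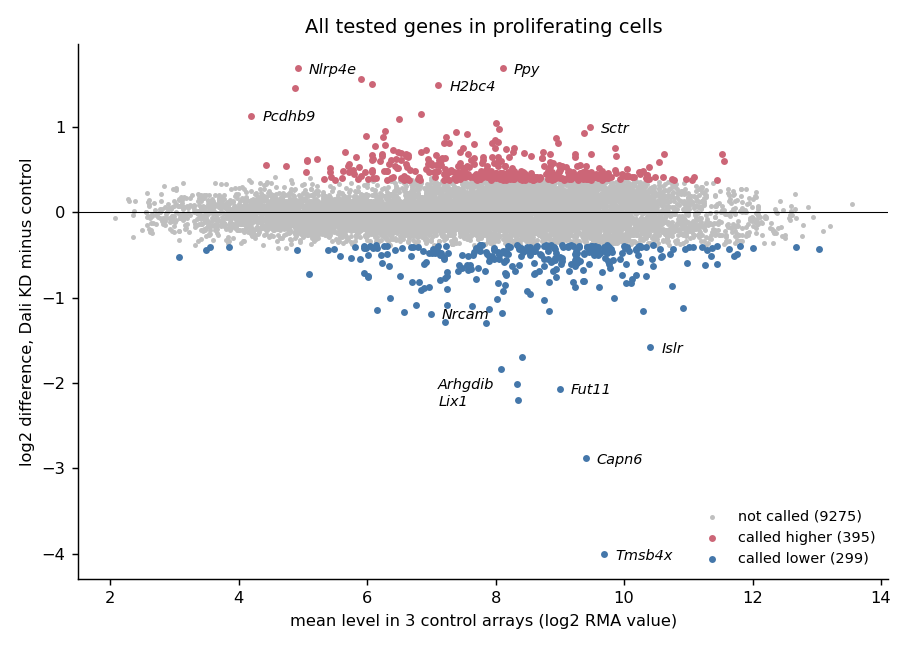
Log2 difference between KD and control cells against the mean control level, one point per tested gene, with the called genes in colour. Tmsb4x, Capn6, Lix1, Fut11 and Arhgdib lie 4-fold or more below 0, and no called rise goes beyond 1.69 on the log2 scale.

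The arrays of each group were close to each other. Over all probe sets, Pearson's r was between 0.9949 and 0.9954 within the control arrays, between 0.9957 and 0.9961 within the KD arrays, and between 0.9913 and 0.9926 across the groups, as a description over probe sets that are not independent. The median SD of a gene over 3 arrays was 0.0609 in control cells and 0.0558 in KD cells. Regressed on the mean difference over the called genes, the KD arrays had slopes of 0.996, 1 and 1; these average 1 by construction and differed little between arrays. The array groups did not overlap in any of the 395 rises and overlapped in 2 of the 299 falls, while 50.3% of the tested genes had groups without overlap. Of the 694 calls, 497 were made in every one of 12 fits that each left out 1 array, 271 of them rises and 226 falls.

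The largest change was the fall of Tmsb4x, the gene of thymosin beta 4, a small peptide that binds actin monomers and holds them back from filaments. It read 9.63, 9.72 and 9.72 in the control arrays and 5.99, 5.29 and 5.77 in the KD arrays. The KD arrays were 16.1-fold lower (log2 difference -4.01 ± 0.14, adjusted p = 1.01e-08), and they spread around the 25th percentile of all values, which lay between 5.89 and 5.91 over the 6 arrays. The related genes Tmsb10 and Tmsb15a differed by -0.27 ± 0.08 and -0.11 ± 0.09 and were not called. Of 10 tested genes for actin monomer binding proteins, 2 were called, both lower, the other one being Cap1 at -0.4 ± 0.06, a call that was lost in some of the fits with 1 array left out. The profilin gene Pfn1 and the cofilin gene Cfl1 lay just short of the fold cutoff at -0.37 ± 0.05 and -0.36 ± 0.05. Of the 12 monomer binding genes measured, 5 differences lay above 0 and 7 below, with a median of -0.157. Among 13 tested genes for filament nucleation, capping and severing limma called none in either direction (7 had an unadjusted p under 0.05), beside 6.96% of all tested genes, and of the crosslinking genes Cnn2, a calponin, was called at 0.45 ± 0.09.

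The Tmsb4x promoter is shown as the start of the gene with the largest change; the capitals mark its match, on the reverse strand, to the octamer ATGCAAAT, the sequence bound by POU-domain factors. It lies at chrX:167209169-167209468 on the minus strand of GRCm38.p6 (RefSeq, 250 bases before to 50 after the start), and the match begins at base 9 after the start.
Tmsb4x: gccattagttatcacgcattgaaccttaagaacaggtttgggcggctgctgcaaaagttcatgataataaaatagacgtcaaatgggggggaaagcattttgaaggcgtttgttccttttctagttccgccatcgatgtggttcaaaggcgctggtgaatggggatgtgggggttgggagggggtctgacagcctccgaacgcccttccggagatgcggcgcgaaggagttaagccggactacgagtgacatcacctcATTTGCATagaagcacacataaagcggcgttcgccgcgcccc
The octamer, searched on both strands, was found in 1.82% of the 7800 promoters of tested genes, in 1.89% of those of called rises and in 1.35% of those of called falls, so its share among the called genes was near that of all tested genes.

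Capn6 fell by 2.88 on the log2 scale (SE 0.09, adjusted p = 8.95e-09). It encodes calpain 6, a member of the calpain family that lacks protease activity and binds microtubules. The control arrays read 9.45, 9.37 and 9.38 and the KD arrays 6.32, 6.66 and 6.6. Of the 12 calpain genes measured, Capn1 had the next largest with a difference of -0.37 ± 0.05, short of the fold cutoff, and no further member was called.

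Lix1, a gene expressed in the developing limb and nervous system, read 8.3, 8.4 and 8.34 in control cells and 6.05, 6.04 and 6.35 in KD cells. Arhgdib read 8.37, 8.28 and 8.36 against 6.35, 6.54 and 6.09, 4.02-fold lower (adjusted p = 1.09e-06). Fut11, a fucosyltransferase gene, read 8.96, 9.04 and 8.99 in control cells and 7.29, 6.42 and 7.09 in KD cells. This value came from 1 of its 2 probe sets; the other differed by 0.14, and the mean of both by -0.96.

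Islr, the gene of a secreted leucine-rich repeat protein, fell by 1.58 on the log2 scale (SE 0.05, adjusted p = 8.95e-09), from 10.38, 10.49 and 10.37 to 8.87, 8.89 and 8.76. Igfbp5, a binding protein of insulin-like growth factors, read 7.85 in each control array and 6.59, 6.59 and 6.47 in the KD arrays. Il13ra1, a subunit of the receptors for interleukins 4 and 13, was 2.45-fold lower, and Fetub, a secreted protease inhibitor of the cystatin superfamily, was 2.23-fold lower. Nos1, the neuronal nitric oxide synthase, read 8.12, 8.09 and 8.08 against 6.83, 6.92 and 7, a fall of 2.26-fold (adjusted p = 3.97e-07). The remaining genes among the 15 largest falls were the cytochrome P450 gene Cyp4f39 (-1.84), Fam169a (-1.69), the adhesion gene Nrcam (-1.19), the potassium channel gene Kcna4 (-1.17) and Niban1 (-1.15). The 15 were chosen among genes whose arrays do not overlap, and the highest adjusted p among them was 0.000163.

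**Figure D2:**
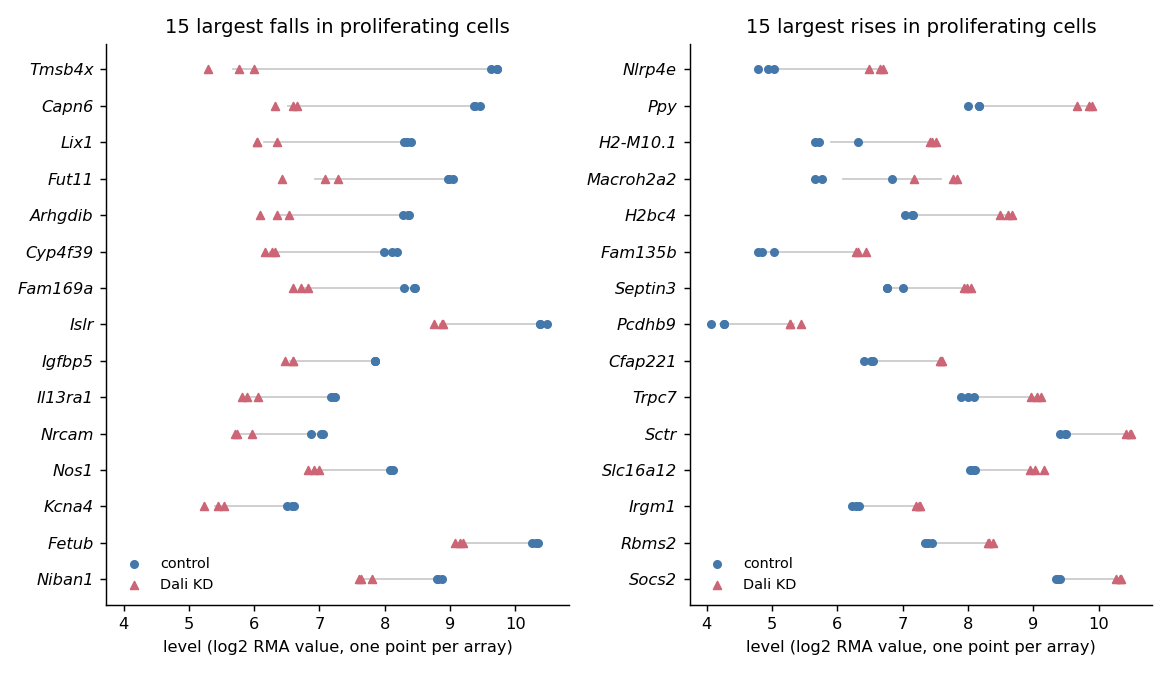
Levels of the 15 largest called falls and rises in each of the 3 control and 3 KD arrays (log2 values), with a grey line between the group means. The genes were chosen for groups that do not overlap, and Macroh2a2 and H2-M10.1 each have 1 control array above the other 2.

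The largest rises were smaller in size and came from several families. Nlrp4e, a member of the NLR family of innate immune sensors and their relatives, read 5.03, 4.94 and 4.79 in the control arrays and 6.7, 6.48 and 6.65 in the KD arrays, 3.22-fold higher (log2 difference 1.69 ± 0.16, adjusted p = 1.89e-05). Ppy, the gene of pancreatic polypeptide, a hormone of the neuropeptide Y family, read 8.17, 8 and 8.17 against 9.9, 9.85 and 9.66 and was also 3.22-fold higher (adjusted p = 8.31e-07). Its relatives Pyy and Npy differed by 0.3 ± 0.05 and -0.21 ± 0.08 and were not called. Macroh2a2, a histone variant gene, read 5.76, 6.83 and 5.65 against 7.77, 7.17 and 7.83, with the largest SE among the 15 largest rises (SE 0.28, adjusted p = 0.00146).

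H2bc4, a replication-dependent histone H2B gene, read 7.14, 7.03 and 7.15 in control cells and 8.49, 8.61 and 8.67 in KD cells. Fam135b rose by 1.46 in the probe set used, and all 5 of its probe sets were higher, from 0.41 upward. H2-M10.1, a non-classical class I gene, rose by 1.56, the septin gene Septin3 by 1.15, Cfap221, a gene of cilia, by 1.09, the cation channel gene Trpc7 by 1.05 and the secretin receptor gene Sctr by 1. Slc16a12, a transporter gene, and Rbms2, an RNA-binding protein gene, rose by 0.98 and 0.94. Socs2, a feedback inhibitor of growth hormone signalling, read 9.38, 9.41 and 9.35 against 10.33, 10.34 and 10.27, and both of its probe sets were higher.

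The list with the highest share of calls was the beta cluster of the protocadherins, cell-surface adhesion proteins that neurons express in varied combinations. The array measured 22 of these genes; all were tested, 17 (77.3%) were called higher and none lower, beside 3.96% of all tested genes called higher, and the median difference of the list was 0.539. Pcdhb9 rose most, from 4.27, 4.06 and 4.26 to 5.44, 5.28 and 5.28 (adjusted p = 8.8e-06), although its control level lay near the floor of the arrays, where the lowest 5% of values end between 3.92 and 3.95. Pcdhb18 read 6.22, 6.39 and 6.12 against 7.23, 7.09 and 7.1. Pcdhb12, Pcdhb14, Pcdhb13 and Pcdhb7 rose by 0.71, 0.67, 0.66 and 0.65.

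The 5 beta protocadherins that were not called, Pcdhb1, Pcdhb17, Pcdhb15, Pcdhb22 and Pcdhb3, differed by 0.07, 0.14, 0.28, 0.28 and 0.31, so all 22 differences were above 0. Whichever array was left out, 17 members were called higher. Genes of this cluster are close in sequence and lie in a row, and how far their probe sets share signal was not tested. The alpha and gamma clusters had no probe set of a single gene symbol among the genes used here.

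**Figure D3:**
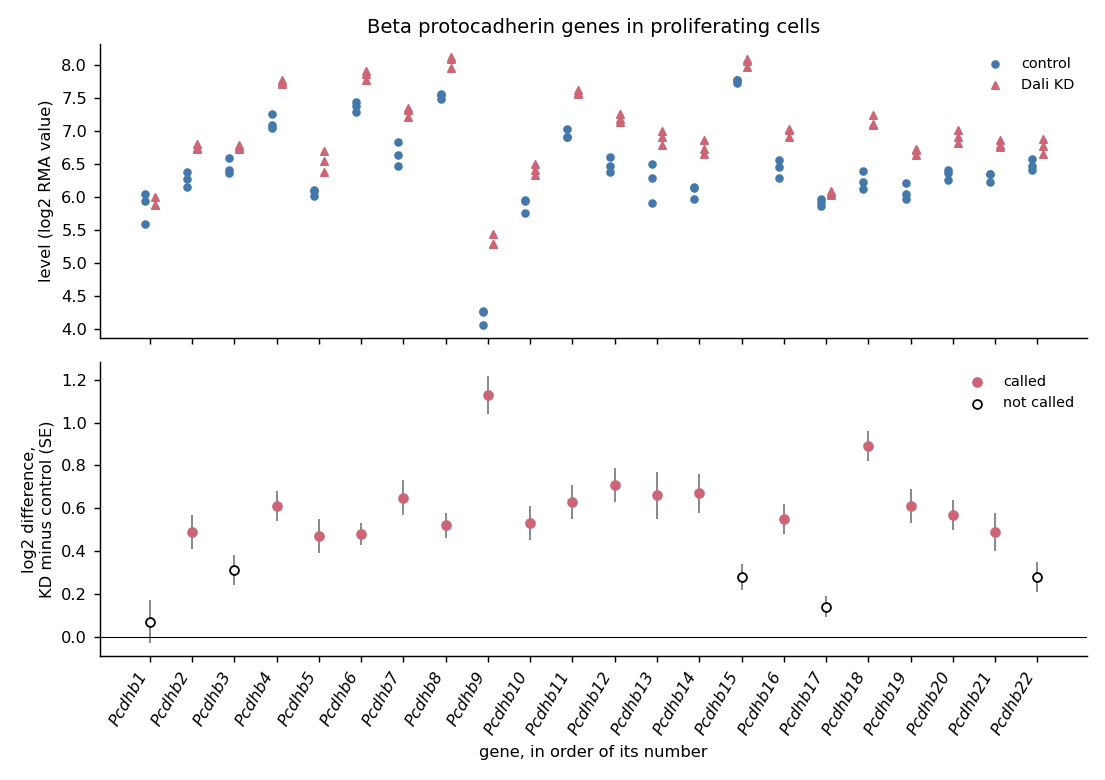
The 22 beta protocadherin genes in order of their number: levels in each array above (log2 values), and the difference between KD and control cells with its standard error below. All differences lie above 0, from 0.07 for Pcdhb1 to 1.13 for Pcdhb9, and filled points mark the 17 called genes.

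Other neural adhesion genes were called lower more often than higher. Among 19 tested genes of the L1, contactin, NCAM, cadherin and non-clustered protocadherin families, 6 were called lower and 2 higher, beside 3% and 3.96% of all tested genes. Nrcam, an L1-family molecule of axon growth and of nodes of Ranvier, read 7.03, 7.06 and 6.87 in the control arrays and 5.74, 5.7 and 5.96 in the KD arrays (2.27-fold lower, adjusted p = 5.31e-06). Its relative Nfasc, neurofascin, fell by 0.5 (SE 0.1), the Down syndrome cell adhesion gene Dscam by 0.45 (SE 0.07), the contactin gene Cntn6 by 0.74 (SE 0.17), the atypical cadherin gene Pcdh15 by 0.81 (SE 0.11) and Cdh18 by 0.42. Cntn3, another contactin, and Opcml rose by 0.46 and 0.4. The calls of Cdh18 and Opcml were lost in some fits with 1 array left out, and the probe sets of Pcdh15 averaged to -0.49.

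Among genes of axon guidance 3 receptors fell. Of 16 tested receptor genes these 3 were called, all lower, and of 16 tested ligand genes limma called none (8 had an unadjusted p under 0.05), beside 6.96% of all tested genes. The difference between the 2 roles was not tested. Unc5a, a netrin receptor, read 8.47, 8.58 and 8.56 in control cells and 7.53, 7.66 and 7.54 in KD cells, 1.95-fold lower. Nrp2, a semaphorin co-receptor, fell by 0.7 (SE 0.05) and Plxnd1, a plexin, by 0.51 (SE 0.06). Homeobox genes of neural patterning that were called lower were Dlx1, at -0.45 ± 0.06, and Pax3, at -0.48 ± 0.09. The patterning list as a whole had 2 lower and 1 higher call among 31 tested genes, the higher one being Isl1.

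Markers of the sympathetic lineage that N2A cells carry were high in both groups, among them Phox2a, Hand2, Stmn2 and Chga, with control means of 9.42, 10.78, 12.09 and 11.81. Of 14 tested markers 5 were called higher and none lower, beside 3.96% of all tested genes called higher, while of the 17 measured 10 differences lay above 0 and 7 below. After RA 1 marker was called higher and 2 lower. Dbh and Th, the enzymes that make noradrenaline and the precursor of dopamine, read 7.8, 7.78 and 7.85 against 8.43, 8.46 and 8.39, and 9.12, 8.95 and 8.97 against 9.52, 9.51 and 9.54. Mycn, the proto-oncogene of neuroblastoma, rose by 0.49 (SE 0.05, adjusted p = 2.52e-05), and the transcription factor genes Hand2 and Isl1 rose by 0.38 and 0.4, the last pair being calls that did not hold in each fit with 1 array left out. Phox2a and Gata3 differed by -0.04 ± 0.06 and -0.12 ± 0.07 and were not called.

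Among markers of other cell types limma called none of 6 tested glial and none of 6 tested immune and endothelial markers, with 0 of each at an unadjusted p under 0.05. Of 10 tested fibroblast markers 1, Pdgfrb, a platelet-derived growth factor receptor, was called lower, from 8.14, 8.18 and 8.09 to 7.3, 7.31 and 7.26. The shares over all tested genes were 6.96% called in either direction and 3% called lower. The median level of the glial markers was 6.56 to 6.61 in the control arrays and 6.5 to 6.53 in the KD arrays, and that of the immune and endothelial markers 6.04 to 6.19 and 6.07 to 6.2, all below the array median of 7.17.

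Of 13 tested neuropeptide and granin genes 3 were called higher and 2 lower, beside 3.96% and 3% of all tested genes. Ppy and the processing enzyme genes Cpe and Pam rose, the latter pair by 0.41 and 0.39 (the call of Pam was lost in some fits with 1 array left out), while Pcsk1n, the gene of a prohormone convertase inhibitor, fell by 0.73 and Vgf by 0.43. Of 58 tested potassium, sodium and calcium channel genes 4 (6.9%) were called, all lower. Over all tested genes 6.96% were called in either direction and 3% lower. Kcna4, a voltage-gated potassium channel, read 6.61, 6.51 and 6.58 in control cells and 5.44, 5.23 and 5.54 in KD cells, and Kcnh7, Kcnn3 and the sodium channel gene Scn1a fell by 0.82, 0.48 and 0.87. Of 35 tested neurotransmitter receptor genes 1 (2.86%) was called, below the 6.96% called in either direction and near the 3% called lower. It was the ATP-gated channel P2rx7, at -0.73 ± 0.04. Of 23 tested genes of the neuronal cytoskeleton limma called none, while 12 had an unadjusted p under 0.05.

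Genes of interferon signalling and viral RNA sensing rose in part. Of 42 tested members 13 were called higher and none lower, beside 3.96% of all tested genes called higher, and the list's median difference was 0.0861. By role, 3 of 5 tested sensors and adaptors, 2 of 10 signal transducers and 8 of 27 induced effectors were called. Irgm1, an interferon-inducible GTPase, read 6.33, 6.23 and 6.28 in the control arrays and 7.27, 7.25 and 7.21 in the KD arrays (adjusted p = 3.97e-07). Ifitm3, a membrane protein that restricts virus entry, read 7.25, 7.13 and 7.3 against 8.11, 8.22 and 7.99. Cxcl10, Herc6, Ifit1 and Dtx3l rose by 0.62, 0.6, 0.57 and 0.51.

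Among the sensors, Ddx58, the RIG-I receptor of viral RNA, rose by 0.5 (SE 0.07), and Sting1, the adaptor of DNA sensing, by 0.47 (SE 0.07). Cgas, Irf1 and Irf9 rose by 0.4, 0.39 and 0.41, and each of these calls was lost in some fits with 1 array left out. The count of members called ranged from 11 to 14 over those fits. Other induced genes were not called, among them Ifitm2, Mx1, Isg20 and Rsad2, which differed by -0.08, -0.2, -0.03 and 0.08. Genes of antigen presentation with a call were H2-M10.1, the peptide-trimming Erap1 (0.47 ± 0.06) and the immunoproteasome subunit Psmb8 (0.45 ± 0.05). These were 3 of 21 tested, all higher, beside 3.96% of all tested genes called higher. The median difference of that list was -0.00737, with 14 of 31 measured differences above 0 and 17 below.

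The promoters of Irgm1, Ifitm3 and Ifitm2 are shown because 2 of these genes rose and 1 did not while all hold the interferon response element, spelt GAAANNGAA and searched on both strands; the capitals mark each match. Of the 35 interferon list members with a promoter, 16 (45.7%) held it, beside 8.15% of the promoters of all tested genes, and many genes of the list are known for such elements. Among its called members 5 of 10 (50%) held it. The sequences, from RefSeq, lie at chr11:48871371-48871670, chr7:141010695-141010994 and chr7:140955912-140956211, all on the minus strand of GRCm38.p6.
Irgm1: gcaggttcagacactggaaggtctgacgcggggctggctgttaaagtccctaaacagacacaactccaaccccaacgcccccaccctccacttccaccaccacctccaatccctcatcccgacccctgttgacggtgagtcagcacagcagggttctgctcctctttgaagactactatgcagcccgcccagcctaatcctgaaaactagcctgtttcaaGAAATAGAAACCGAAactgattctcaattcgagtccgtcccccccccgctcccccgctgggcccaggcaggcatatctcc
Ifitm3: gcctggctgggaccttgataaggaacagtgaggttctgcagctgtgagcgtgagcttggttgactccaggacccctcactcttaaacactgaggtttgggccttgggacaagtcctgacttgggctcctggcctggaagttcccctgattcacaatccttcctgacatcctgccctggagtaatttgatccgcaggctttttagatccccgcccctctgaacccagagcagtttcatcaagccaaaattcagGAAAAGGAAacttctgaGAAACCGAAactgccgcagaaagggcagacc
Ifitm2: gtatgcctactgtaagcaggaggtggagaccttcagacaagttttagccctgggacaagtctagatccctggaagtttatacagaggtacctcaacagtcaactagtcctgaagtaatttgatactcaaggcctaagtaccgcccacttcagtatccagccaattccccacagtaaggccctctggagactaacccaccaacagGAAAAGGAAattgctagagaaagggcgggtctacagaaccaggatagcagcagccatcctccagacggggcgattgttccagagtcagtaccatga
Irgm1 carries 2 overlapping matches just before its start, Ifitm3 carries 2 after its start, and Ifitm2 carries 1 before it. A match describes the letters alone and tells nothing of binding in these cells.

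The inflammasome-related NLR genes gave 5 rises among 20 tested members and no fall, beside 3.96% of all tested genes called higher, and the 5 were called whichever array was left out. Naip6 and Naip5, sensors of bacterial flagellin, read 8.31, 8.3 and 8.24 against 9.03, 9.1 and 8.99, and 8.77, 8.68 and 8.78 against 9.52, 9.47 and 9.35. Naip2 and Nlrp4f rose by 0.43 and 0.47. The 3 Naip genes lie in a row among the tested genes, so their rises need not be independent. The near relatives Nlrp4a, Nlrp4b, Nlrp4d and Nlrp4c differed by 0.06, 0.12, -0.01 and 0.23 and were not called. Among 3 tested inflammasome adaptor and caspase genes limma called none (1 at an unadjusted p under 0.05). Of the apoptosis genes Casp8, an initiator caspase, rose by 0.85 (SE 0.08) and Birc3, an inhibitor of apoptosis, by 0.58 (SE 0.06), while limma called none of 10 tested genes of the p53 pathway (6 at an unadjusted p under 0.05).

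Histone genes gave 7 rises among 33 tested and no fall, beside 3.96% of all tested genes called higher, with a median difference of 0.16 over the 46 measured. Linker histone genes were 3 of these: H1f1 read 9.79, 9.91 and 9.89 against 10.6, 10.7 and 10.57, and H1f2 and H1f3 rose by 0.68 and 0.7. The others beside H2bc4 and Macroh2a2 were H2bc8, at 0.71 ± 0.09, and H2ac4, at 0.38, whose call was lost in some fits with 1 array left out. Replication genes of S phase, which are expressed in the same part of the cell cycle, had no call in limma among 36 tested (13 at an unadjusted p under 0.05) and a median difference of 0.0699. Of 35 tested genes of G2 and mitosis 3 were called higher and 1 lower, beside 3.96% and 3% of all tested genes. The rises were Ttk, Kif11 and Smc4, by 0.38 or 0.39; the list had 0 higher calls without KD array 2 and 1 without control array 3. The fall was Cks2, a partner of cyclin-dependent kinases, which fell by 0.61 (SE 0.04).

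Zinc finger genes with Zfp symbols, many of them transcriptional repressors of the KRAB type, gave 24 rises and 1 fall among 203 tested, beside 3.96% and 3% of all tested genes. Of all 341 measured, 258 differences lay above 0 and the median was 0.0899, beside -0.0124 over all measured genes. Zfp827 rose from 7.45, 7.65 and 7.54 to 8.44, 8.48 and 8.47, and Zfp458 from 8.85, 9.12 and 8.95 to 9.77, 9.8 and 9.8. The fall was Zfp991, at -0.76 ± 0.14. Of the 25 calls, 16 held in all fits with 1 array left out. Some of the rises lie in a row among the tested genes, such as Zfp882, Zfp617 and Zfp961, and need not be independent.

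Some sterol biosynthesis genes fell. Of 19 tested, 4 were called lower and none higher, beside 3% of all tested genes called lower, and 17 differences lay below 0 with a median of -0.181. Sqle, squalene epoxidase, read 11.3, 11.21 and 11.26 in the control arrays and 10.68, 10.66 and 10.58 in the KD arrays (adjusted p = 3.49e-06). Fdft1, squalene synthase, Ebp and Hsd17b7 fell by 0.44, 0.45 and 0.43. From squalene to cholesterol all 11 differences were below 0, with a median of -0.181, and from acetyl-CoA to squalene 6 of 8 were, with a median of -0.199.

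Srebf2, the transcription factor that controls these genes, differed by -0.36 ± 0.05 (adjusted p = 0.000124), short of the fold cutoff, and the cholesterol exporter gene Abca1 fell by 0.72 and the desaturase gene Scd1 by 0.63. The sterol response element TCACNCCAC, searched on both strands, was in 1 of 16 promoters of the sterol list, beside 1% of those of tested genes.

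Of 50 tested respiratory chain subunits 5 were called, all lower, beside 3% of all tested genes called lower, and the median over 73 measured was -0.124. Uqcr11, a complex III subunit, read 10.31, 10.29 and 10.43 against 9.66, 9.58 and 9.58, and Atp5md, Uqcrh, Cox6c and Ndufb9 fell by 0.51, 0.5, 0.43 and 0.43. Read against the same share, 3 of 18 tested glycolytic enzyme and transporter genes were called lower, the glucose transporter gene Slc2a1 (-0.51 ± 0.06), Aldoc (-0.48 ± 0.06) and Pfkm (-0.4 ± 0.05). Cytosolic ribosomal protein genes had no call in limma among 26 tested (9 at an unadjusted p under 0.05) and a median of -0.00824.

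Of 25 tested matrix and proteoglycan genes outside the collagens, 4 were called lower and none higher, beside 3% of all tested genes called lower. They were Islr, the heparan sulphate proteoglycan genes Sdc3 (-0.58 ± 0.06) and Gpc1 (-0.5 ± 0.06), and Sparc (-0.49 ± 0.05). Lama5, a laminin chain, rose by 0.65 (SE 0.05), and Itga8, an integrin, fell by 0.6 (SE 0.08). Of signalling genes, the Wnt receptor gene Fzd6 fell by 0.82 (SE 0.07), and the ligand genes Tgfb2 and Tgfb3 by 0.49 and 0.42. Lists with no call in limma were Hox genes, of which 2 of 15 tested had an unadjusted p under 0.05, Notch signalling (4 of 11), G1 cyclins and inhibitors (3 of 11), small RNA processing (5 of 10), annexins and S100 genes (3 of 14) and the amino acid and endoplasmic reticulum stress response (4 of 16). Over all tested genes 4378 had an unadjusted p under 0.05.

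**Figure D4:**
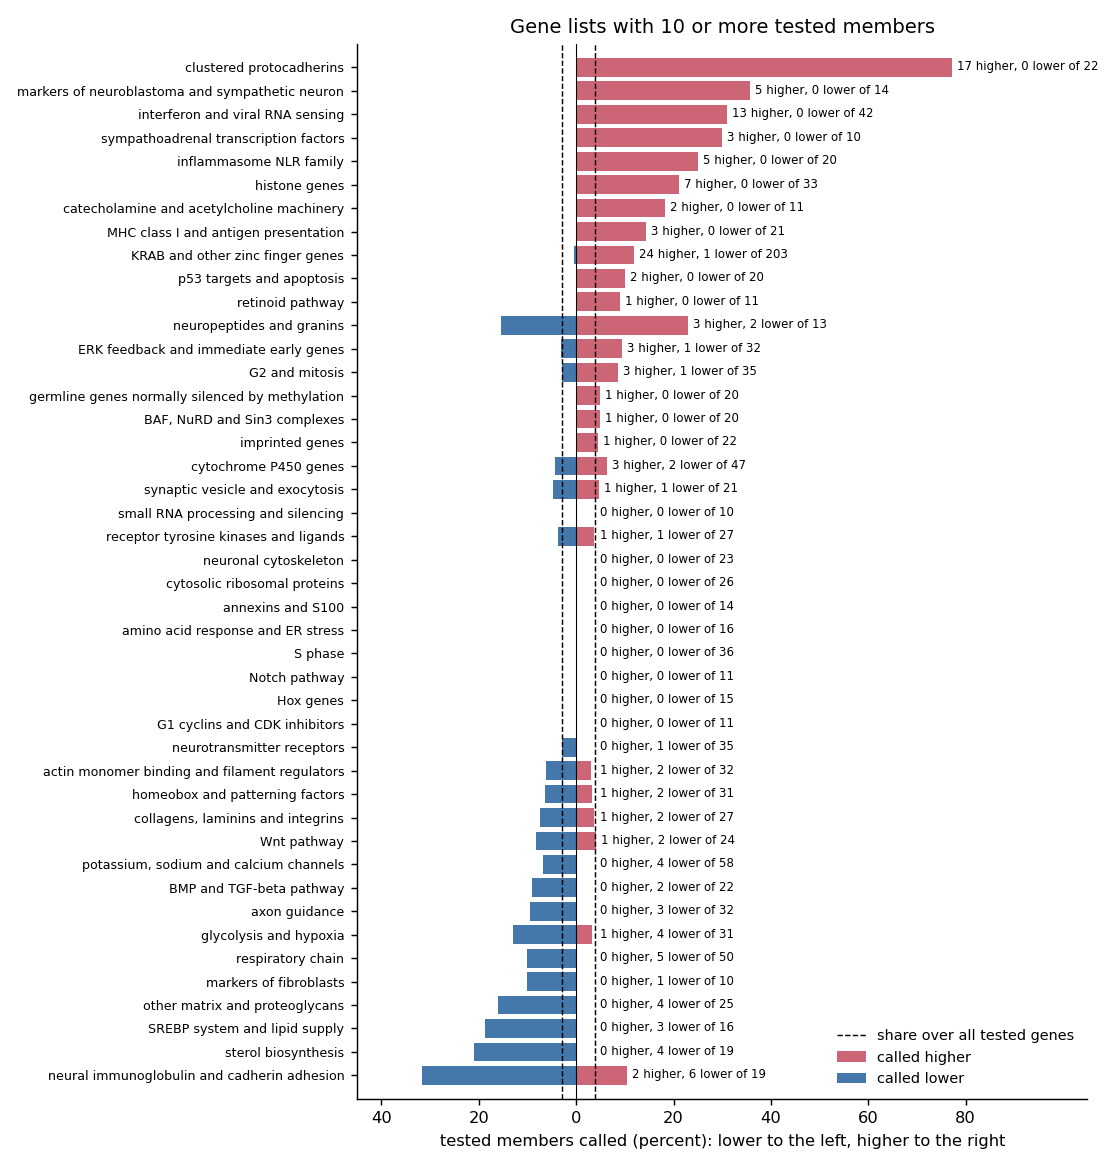
Share of the tested members of each gene list that was called higher (right) or lower (left) in KD cells, for lists with at least 10 tested members, with the counts beside the bars. Dashed lines mark the shares over all tested genes, 3.96% higher and 3% lower; the beta protocadherins reach 77.3%.

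Of 692 called genes with a place in the gene order, 164 lay next to another gene called in the same direction. In that order, 110 pairs of adjacent tested genes were both called, and 95 of these (86.4%) went the same way. Over all 694 calls 56.9% were higher. How many such pairs, and what same-way share, these calls would give without regard to gene order was not computed. There were 13 stretches of 3 or more tested genes in a row called in the same direction. The longest held 11 genes, Pcdhb4 to Pcdhb14, and another ran over Pcdhb18 to Pcdhb21. Other rises in a row were Zfp759, Rsl1, Zfp455 and Zfp458, and the Naip2, Naip5 and Naip6 genes. Some rising stretches held genes of different kinds. Nnt, Paip1, 4833420G17Rik and Tmem267 rose by 0.41 to 0.49. Cdk7, Mrps36, Cenph and Slc30a5 rose by 0.42 to 0.56, and Trappc13, Trim23, Ppwd1 and Cenpk by 0.38 to 0.54. Stretches that fell were the glutathione transferase genes Gstm3, Gstm2 and Gstm1, by 0.39 to 0.71, and Frrs1, Plppr4 and Plppr5, by 0.41 to 0.61. Families of related genes lie side by side, and the share of neighbours that such families account for was not tested. How the stretches of genes of different kinds arose was not tested either. The chromosome of each stretch is not given here. Stretches that share a chromosome are therefore not told apart from those that do not, and they need not be independent.

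The promoters of called rises were richer in CpG than those of the falls and of all tested genes. The observed over expected CpG ratio, which is low where methylation has worn CpG away over evolution, had a median of 0.73 in 317 promoters of rises, 0.637 in 222 promoters of falls and 0.645 in the 7800 of all tested genes. It exceeded 0.6 in 63.7%, 53.6% and 53.9% of them. Without the Zfp genes, which left 295 promoters, the share for rises was 64.7%; no protocadherin promoter was among the sequences used. The cyclic AMP response element TGACGTCA, the sequence bound by CREB and ATF factors, was in 4.42% of promoters of rises, 0.45% of those of falls and 2.69% of those of tested genes, 14 and 1 promoters for rises and falls. These shares are descriptions and were not tested.

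After RA, 769 of 9969 genes (7.71%) were called between KD and control cells, and 362 of the 694 genes called in proliferating cells were called there in the same direction. These arrays are separate, but the study describes both states for its control and stable KD lines. Which line each array stands for is not in the labels, so the 2 states are not taken as independent. The difference between the KD effects of the 2 states was called for 124 genes (1.24%). Of the 15 largest falls 14, and of the 15 largest rises 13, were called the same way after RA. Tmsb4x stayed lower, by -2.99 ± 0.14, and Capn6 by -2.73, while Ppy differed by 0.3 ± 0.1 and was not called. Of the 17 called protocadherins 16 were called in both states, of the 13 interferon genes 6, and of the 7 histone genes 2.

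**Figure D5:**
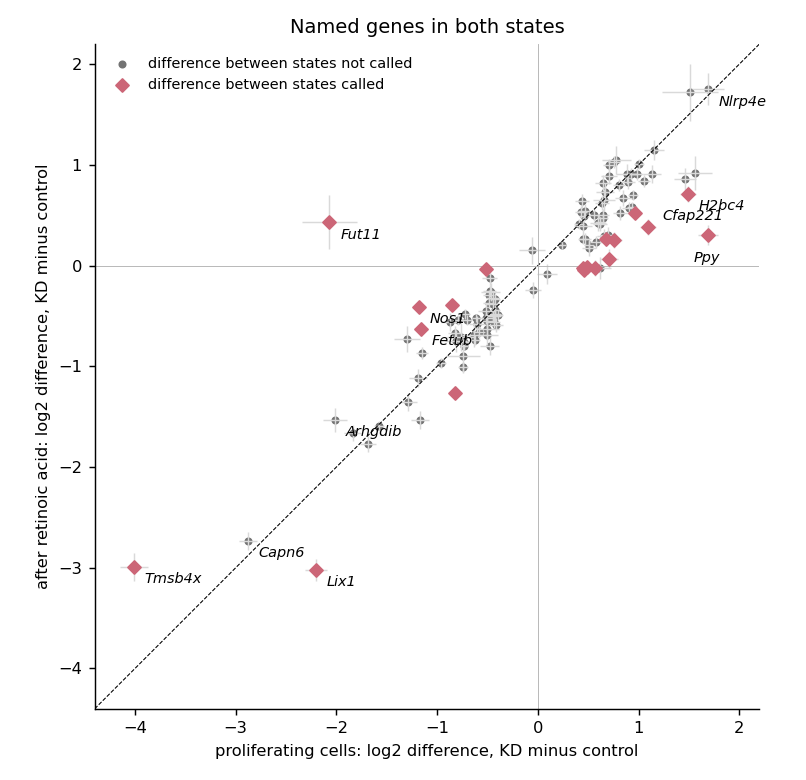
Log2 difference between KD and control cells after RA against that in proliferating cells for the named genes, with standard errors; diamonds mark genes whose difference between the states was called, and the dashed line is equality. Fut11, at -2.07 in proliferating cells and 0.43 after RA, lies farthest from the line.

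With all probe sets as units, including those without a gene name, 511 of 8281 tested probe sets with no symbol (6.17%) and 47 of 608 with several symbols (7.73%) were called.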

How the data were processed

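RNA of 12 N2A samples was measured on single-colour Affymetrix gene arrays. The authors deposited log2 values, with 1 value for each probe set on each array; per the study's methods they were RMA background corrected, quantile normalised and summarised at the gene level, so a cell's total RNA content is not seen in them. The submitters' notes name RMA and limma, with versions not given in the sources used here; scan batches and detection calls are not given either, and precision is limited by how many arrays there are.

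Of 35556 probe sets, 21789 had 1 gene symbol in the platform annotation, 1621 several and 12146 none; 21698 matched RefSeq (GRCm38.p6) by gene identifier. Of a gene's probe sets the one with the largest interquartile range over the 12 arrays was kept (999 of 19938 genes had several), and the lower 50% of genes by that range were dropped, which left 9969. A model of 4 group means was fitted to the 12 arrays in limma 3.58.1 in R 4.3.3 (lmFit, contrasts, eBayes). Calls needed a two-sided Benjamini-Hochberg adjusted p under 0.05 over all tested genes and a 1.3-fold change. Errors are the fit's standard errors (SE). The fit was tested on simulated data.

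The comparison and the 52 gene lists were chosen with earlier results of these data known, so lists are described by counts and medians. The results of 1 list are not reported here. Named genes were the 15 largest called rises and falls with non-overlapping arrays. Predicted genes, small RNAs, receptor families of smell and immune segments were left out of these. From each list, up to 6 members called in all leave-one-out fits could be named, or all called members where there were 5 or fewer. Not every such member is named in the text. Genes of the Pou3f3 locus, chromatin partners of Dali, paralogs and stretches of neighbours were named too. Members without a call named beside called ones were chosen after their values were seen. Promoters are 300-base RefSeq windows, the first listed per gene. Alternatives were the fit on 6 arrays, other filters, the mean over probe sets, centring, repeated quantile normalisation, array weights, a replicate block, another variance model, other fold cutoffs and leaving out each array.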

Additional observations from a re-analysis of the deposited data

Results flagged for a closer look

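For 19 named genes the KD effect after RA minus the KD effect in proliferating cells was itself called in limma's interaction test, in which 124 of 9969 genes (1.24%) were called. The effect after RA was the more positive for Fut11 (2.49, from a fall to no call), Tmsb4x (1.01), Nos1 (0.77), Fetub (0.53), Slc2a1 (0.49) and Pdgfrb (0.45). It was the more negative for Ppy (-1.39), Lix1 (-0.82), H2bc4 (-0.78), Cfap221 (-0.72), H2bc8 (-0.64), Ifit1 (-0.59), H1f1 (-0.51), Mycn (-0.5), Rhob (-0.5), Sfrp4 (-0.47), Irgm1 (-0.44), Kcnh7 (-0.44) and H1f2 (-0.41). All of these are log2 values, and the adjusted p ranged up to 0.0446. The RA arrays also differed in serum, so RA and serum cannot be told apart.

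Probe sets outside the gene-level comparison also carried differences: 511 probe sets with no gene symbol were called, 313 higher and 198 lower, with differences from -1.79 to 1.82, and 47 probe sets with several symbols were called.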

How the results depend on the processing

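Among the largest changes and the list members named because all leave-one-out fits called them, no call was lost or turned. This held under any alternative that tested the gene, other fold cutoffs aside. For the list members the leave-one-out fits could not show a loss, because those fits chose them. The count of called genes, 694 (395 higher, 299 lower), was 3485 (1907 higher, 1578 lower) with no fold cutoff and 36 (11 higher, 25 lower) with a 2-fold cutoff. Leaving out each array in turn gave 675 to 741 called genes, 356 to 433 higher and 283 to 339 lower, with 614 to 694 of the original calls shared. With a filter on mean level in place of variation 517 were called, 515 of them shared. That filter drops weakly expressed genes, so fewer list members were tested, and it left 3 protocadherins, 5 interferon genes, 3 histone genes and 3 NLR genes called higher and 1 neural adhesion gene and 1 channel gene called lower. Repeated quantile normalisation gave 679 calls, 51% of them higher against 56.9%. Same-numbered control and KD arrays had deviations correlated at 0.11, 0.04 and 0.03. Control array 1 matched KD array 1 best, and control arrays 2 and 3 both matched KD array 2 best. Matches this weak cannot decide whether the numbers pair the arrays. A replicate block gave 696 calls (57.2% higher), 691 of them shared. Of the counts of called list members, 209 moved by over 1.5 times, most of them under the other fold cutoffs, and 2183 did not. Of the list medians, 79 moved by more than the spread between arrays, most of them with an array left out or the filter on level, and 1012 did not; those of the protocadherins, histones, sterol and respiratory chain genes did not move.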
